A study of Danio rerio with 9 samples.

Results

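Contacts of accessible chromatin in the zebrafish caudal fin were compared between uninjured fins and fins at 1 day post amputation (dpa). The members are all called interactions of the 0 dpa list (28421) and of the 1 dpa list (18712), 47133 of the 74121 entries in the lists of the series. No measured value was used to choose them. The fish were wild type adults of the outbred Ekkwill strain, 6 to 8 months old, and were anaesthetised with 2-phenoxyethanol; the labels name no transgene and no other agent. Fins were cut at 50% of their length, and 0 dpa stands for freshly amputated tissue. Each time point had 3 pools of 10 fins, and a pool mixes every cell type of the fin. The deposited data hold 1 list per time point with no value per pool, so no difference between the times could be tested against the spread between pools. Fewer cells of a type and weaker contacts in each cell cannot be told apart in such bulk samples.

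HiCAR (Hi-C on accessible regulatory DNA) joins DNA opened by the transposase Tn5 to DNA that lies close to it in the nucleus. Contacts between open sites are known to bring enhancers near promoters and to mark the borders of chromatin domains. A bin that contacts a whole run of bins on one side forms a stripe in a contact map, a shape ascribed in other systems to the cohesin complex reeling in DNA from a fixed site. After amputation, the fin is closed by a wound epidermis and then forms a blastema, a mass of dividing cells from which the lost part regrows.

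Each interaction joins 2 bins of 10 kb on the same chromosome and carries the authors' contact count, their expected count and a false discovery rate (FDR). The strength of a pair is the count over the expected count, and the span is the distance between the bin starts. A pair had a counterpart if the other list held a pair with both bins within 1 bin of its own; otherwise a 0 dpa pair is called lost and a 1 dpa pair gained. A lost pair is one that was not called at 1 dpa, which depends on depth, and depth is unknown because the counts cover called pairs only. These summed to 909221 at 0 dpa and 562191 at 1 dpa. Intervals are at 95%, exact binomial for shares, exact Poisson for strengths and exact conditional binomial for ratios. They cover counting error only and treat pairs as independent, which neighbouring pairs are not. The lowest called pairs had a count of 12 and about 2 times the expected count, and the part of depth in the results was not tested. Rises and falls below are differences between 2 lists with no test behind them.

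The 1 dpa list was shorter by 9709 interactions. Lost pairs numbered 8231, or 29.0% of the 0 dpa list, and gained pairs 2160, or 11.5% of the 1 dpa list. This exchange accounted for a net 6071. The remaining 3638, or 37.5% of the difference, lay at contacts present in both lists: 20190 pairs at 0 dpa had a counterpart, and these met 16552 pairs at 1 dpa. The same contacts were thus covered by fewer neighbouring bins. Of the 0 dpa pairs, 13312 were called in identical bins at 1 dpa, 6878 had their nearest 1 dpa pair 1 bin away, 1912 just outside the limit at 2 bins, 994 at 3 bins and 4136 at over 5 bins. When identical bins were required, 15109 pairs were lost and 5400 gained. With the 0 dpa list cut to the length of the 1 dpa list by FDR, 4710 were lost (25.2%) and 2975 gained (15.9%).

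Under the 1-bin rule, loss followed the span and the strength of a contact. Pairs of 20 to 30 kb lost 46.7% (45.6 to 47.7), against 24.3% at 40 to 50 kb and 17.9% (16.9 to 18.9) at 110 to 200 kb. Neighbouring pairs can share 1 counterpart under that rule, and the contrast between spans was smaller with identical bins. Of 8923 pairs at 20 to 30 kb, 3191 were called in identical bins at 1 dpa. At 40 to 50 kb these were 1771 of 3701, and at 110 to 200 kb 2959 of 5621. By strength, the share lost under the 1-bin rule went from 50.8% among pairs at 2 to 2.5 times the expected count to 9.29% among those over 10 times. This was not worked out with identical bins. The short class kept its high loss only while contacts were weak. At 20 to 30 kb, 54.7% of pairs over 2.5 and up to 3 times expected were lost, 20.8% of those over 4 and up to 6 times, and 1 of 121 over 10 times. Contacts of 510 to 1000 kb at over 6 and up to 10 times expected lost 44.7% (37.1 to 52.5), against 10.2% (8.53 to 12.2) for 110 to 200 kb at the same strength. Such classes are matched for strength and not for count, and the lowest called count was 12. How far the counts of each class lay above that limit was not worked out, nor were these classes with identical bins. Over all strengths, 211 of 385 pairs at 510 to 1000 kb were called in identical bins at 1 dpa. That share was no lower than the 2959 of 5621 at 110 to 200 kb, so longer pairs did not lose more under that match. Lost pairs had a median strength of 3.17 and kept pairs of 4.17. Gained pairs had 3.66, against 4.18 for 1 dpa pairs with a counterpart. Under the 1-bin rule, gains were also most frequent among short pairs, 18.2% at 20 to 30 kb against 6.94% at 40 to 50 kb. They were least frequent among strong ones, 6.35% over 10 times expected. With identical bins, short pairs did not gain the most. Of the 4556 pairs of 20 to 30 kb at 1 dpa, 3191 were in identical bins at 0 dpa, a share no lower than the 2959 of 4304 at 110 to 200 kb. No pair of either list spanned under 20 kb, so the shortest pairs had fewer bins open to a counterpart. Together, the 1 dpa list held 0.511 times as many pairs at 20 to 30 kb and 0.766 times as many at 110 to 200 kb.

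**Figure D1:**
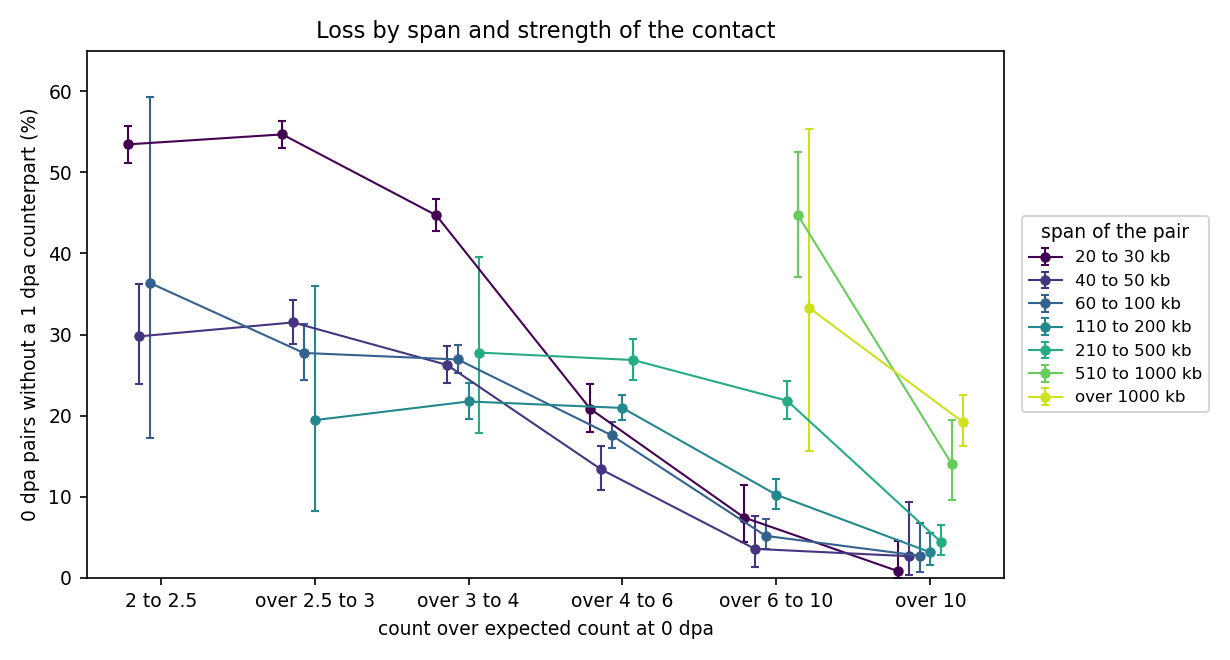
Share of 0 dpa pairs without a 1 dpa counterpart under the 1-bin rule (vertical axis, percent) by count over expected count at 0 dpa (horizontal axis, classes), with a line per span class; bars are 95% exact binomial intervals, for classes of at least 20 pairs. Pairs of 20 to 30 kb fall from 54.7% to 0.826% between the classes over 2.5 to 3 and over 10, while pairs of 510 to 1000 kb lie at 44.7% in the class over 6 to 10.

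Lost pairs often fell together in patches of the contact map. The authors grouped neighbouring called pairs into clusters, 10524 at 0 dpa and 7663 at 1 dpa. Of the 8231 lost pairs, 6974 (84.7%) lay in clusters that were lost whole: 2727 were singletons, with no called neighbour, and 4247 came from clusters of 2 or more pairs. A singleton can only be lost whole, so the 4247, or 51.6% of the lost pairs, are those lost together. Singletons were lost in 57.0% of cases and clusters of 2 pairs were lost whole in 50.2%. Large patches were trimmed instead. Of the 398 clusters of 10 or more pairs, 1 was lost whole and 41.5% lost some pairs, and of the 1097 with 5 to 9 pairs, 4.10% were lost whole. The number of clusters of 10 or more pairs went from 398 to 196, a ratio of 0.492, while singletons went from 4787 to 3616, a ratio of 0.755. In the 740 clusters that lost only some pairs, lost pairs lay on average 2.44 bins from the cluster's summit and kept pairs 1.65 bins, with median strengths of 3.16 and 3.91. Of their 741 summits, 106 (14.3%) were lost. Pairs of a cluster can share 1 counterpart under the 1-bin rule, which favours whole loss or none. With identical bins, 54.5% of the clusters of 2 pairs and 5.01% of those of 5 to 9 had no pair left. Under that rule 67.1% and 45.8% of their pairs were lost, so many clusters of 2 would be lost whole without any link between pairs.

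**Figure D2:**
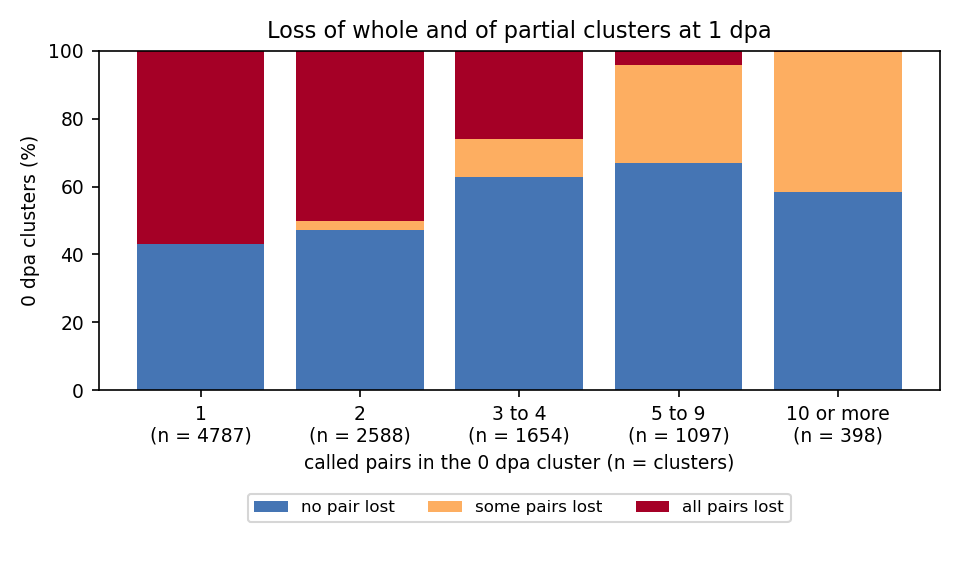
Share of the 0 dpa clusters (vertical axis, percent) that lost none, some or all of their pairs at 1 dpa, by the number of called pairs in the cluster (horizontal axis, n is the number of clusters). Whole loss goes from 57.0% of singletons to 0.251% of clusters of 10 or more pairs, and partial loss from 2.70% of clusters of 2 pairs to 41.5% of the largest.

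The largest cluster lost whole lay on chromosome 22 (build danRer11, 1-based positions), between 25810001–25840000 and 25870001–25910000. Its 10 pairs held 243 counts against 75.8 expected, 3.21 times. The nearest 1 dpa pair was 2 bins away, just outside the matching limit. A cluster of 8 pairs on chromosome 23, between 14590001–14620000 and 14620001–14660000, had 250 counts against 93.7 expected, with the nearest 1 dpa pair 3 bins away. Those 2 clusters joined near bins at modest strength, whereas the next was both longer and stronger. It lay on chromosome 12, between 3080001–3110000 and 3200001–3240000, with 7 pairs and 148 counts, 4.93 times the expected count. Clusters of 7 pairs on chromosomes 5, 16 and 20 were also lost whole, at 3.15, 2.54 and 3.73 times their expected counts. The one on chromosome 20, between 15450001–15490000 and 15540001–15560000, had its nearest 1 dpa pair 5 bins away.

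Under the 1-bin rule, loss was shared at anchors mainly through these patches. An anchor is a bin at either end of a pair. When 1 pair of an anchor was lost, 43.4% of its other pairs were lost too, against 13.8% when 1 pair was kept. With identical bins, these shares were 51.5% and 40.9%. Most of the contrast under the 1-bin rule came from pairs of the same cluster, where the shares were 65.4% and 4.95%. Pairs of a cluster can share 1 counterpart under that rule, so this contrast is partly built in. It was not worked out within clusters with identical bins. For pairs of an anchor that belonged to different clusters the shares were 32.4% and 25.7%. The gap between different clusters was wider for short contacts, with 55.4% and 39.6% at 20 to 30 kb, and narrow at 210 to 500 kb, with 23.1% and 21.4%. At 510 to 1000 kb it had the other direction, with 21.5% (14 of 65) and 34.7% (51 of 147). It was also seen at set strength: 37.0% and 26.6% for pairs over 3 and up to 4 times expected, and 22.8% and 19.4% over 4 times. With identical bins, it was 52.6% and 48.8%. Gained pairs of different clusters showed the same direction, 13.1% and 10.8%.

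Anchors with few partners lost the most under the 1-bin rule. Neighbouring pairs can share 1 counterpart under that rule, and these shares were not worked out with identical bins. Anchors with 1 pair at 0 dpa lost it in 44.2% of 16167 cases. Anchors with 4 to 6 pairs lost 20.1% of them, and the 143 anchors with 11 or more lost 15.6%. No anchor of that last size lost all its pairs, and 28.7% lost none. Of the lost pairs, 38.4% had neither end within 1 bin of a 1 dpa anchor, 37.7% had 1 such end and 23.9% had both. For the last group, a bin within 1 bin of each end made called contacts at 1 dpa. It need not be the same site, so a change of partners is not shown. The share of all bins that lie so near an anchor was not worked out. Of the gained pairs, 32.6% had both ends within 1 bin of a 0 dpa anchor.

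Along the chromosomes, loss was widespread and uneven. Chromosome 4 lost the lowest share of its pairs, 22.5%, and chromosome 1 the highest, 33.1% (30.4 to 35.9). Other chromosomes came close to the highest, such as chromosome 21 at 32.2% (29.0 to 35.6). With identical bins chromosome 1 was not the highest: 508 of its 1145 pairs were kept, against 347 of 813 on chromosome 21. Pairs were placed by the midpoint of their bins in 1 Mb windows, and 570 windows held at least 20 pairs at 0 dpa, 73.1% of the list. The median window lost 25% of its pairs, with quartiles of 17.0% and 34.8% and a range from 0% to 79.2%. In 72 windows the share was at least 1.5 times the list-wide 29.0%, and in 186 at most the list-wide share divided by 1.5. The windows of under 20 pairs, left out here, lost more than the list-wide share. That base thus favours low over high windows, and the spread from counting alone was not worked out. Set against the list-wide rates of pairs of the same span and strength class, 66 windows were high and 171 low. The counts of high and low windows became 7 and 39 with identical bins, where the list-wide share is 53.2%. With lists of equal length, 313 windows held at least 20 pairs, of which 17 were high and 142 (45.4%) low. High windows did not lie in long runs: 4 of them were followed by another, and the share lost in neighbouring windows had a Pearson r of 0.0985 over 300 neighbours. In 20 of the 570 windows the 1 dpa list held at least as many pairs as the 0 dpa list.

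The highest share lost was at 48000001–49000000 of chromosome 7. It held 24 pairs at 0 dpa and 5 at 1 dpa, and 19 were lost, 79.2% (57.8 to 92.9), from 9 of its 10 clusters. The window at 13000001–14000000 of chromosome 13 went from 51 to 19 pairs, with 34 lost, 66.7% (52.1 to 79.2), from 16 of its 22 clusters. In these windows, loss was spread over most contacts and was not the work of 1 patch. On chromosome 14, the window at 12000001–13000000 lost 18 of 24 pairs, and 7 of its 14 pairs at 1 dpa were gained. The windows at 3000001–4000000 of chromosome 2, 48000001–49000000 of chromosome 6 and 45000001–46000000 of chromosome 3 lost 17 of 24, 14 of 20 and 18 of 26 pairs. These 6 windows lost 73.1% to 83.3% with identical bins and 52.9% to 72.7% with lists of equal length.

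At the other end, 3 windows lost no pair. The window at 22000001–23000000 of chromosome 7 had a counterpart for all 31 pairs, and the interval of its share lost reaches 11.2%. On chromosome 20, the window at 31000001–32000000 went from 27 to 33 pairs and that at 33000001–34000000 from 23 to 28, with no pair lost. Another window of chromosome 20, at 23000001–24000000, lost 1 of 61 pairs, 1.64% (0.0415 to 8.80), and had 59 at 1 dpa. Thus 3 of the 6 windows with the lowest share lost lay on chromosome 20, which lost 23.1% of its pairs, and 2 on chromosome 7. The others were at 26000001–27000000 of chromosome 19, with 1 of 40 lost and 9 of 35 gained, and at 24000001–25000000 of chromosome 7, with 1 of 33 lost. For these 6 windows the rates of span and strength would give 4.80 lost pairs or more each. With identical bins they lost 17.4% to 45% and with lists of equal length at most 4.76%.

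Gained pairs were rarer and also scattered. Of 318 windows with at least 20 pairs at 1 dpa, 47 had none gained and 52 had at least 1.5 times the list-wide 11.5%. The highest share was at 41000001–42000000 of chromosome 17, where 13 of 26 pairs were gained, 50% (29.9 to 70.1), in 8 clusters. The same window lost 15 of its 36 pairs. The window at 39000001–40000000 of chromosome 7 had 11 of 26 gained, 42.3% (23.4 to 63.1), and lost 6 of 27. In the 4 others named by share gained, on chromosomes 3, 5, 18 and 23, it was 28.6% to 29.2%. Across 316 windows with at least 20 pairs in both lists, the shares lost and gained had a Spearman rho of 0.135; both shares rest on the same pair of lists.

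Crowded windows and the middle of chromosomes lost less. Windows of 20 to 29 pairs lost 30.4% and those of 60 or more lost 18.8%, where rates of span and strength would give 29.5% and 27.4%. With identical bins, the shares were closer, 53.6% and 48.1%. Crowded windows held fewer singletons, 6.59% of pairs against 16% in the windows of 20 to 29. The middle of the chromosomes, from 40 to 60% of the length up to the last called bin, lost 24.7% (23.8 to 25.7) of 7847 pairs, against 30.6% of 20574 elsewhere. It was chosen after the values along the chromosomes were seen. The share was lower in the middle on 20 of 25 chromosomes, and on 23 of 25 relative to the rates of span and strength. Chromosomes of a list share its pools and depth and are not replicates. In windows of 40 or more pairs the shares were 19.4% in the middle and 24.1% elsewhere, and in windows under 20 pairs 37.2% and 38.5%. The ratio of middle to rest was 0.808. It was 0.800 without singletons, 1.03 among singletons alone and 0.953 with identical bins. At the chromosome ends, the outermost windows lost 20.3% and the next ones 31.5%, where rates of span and strength would give 24.2% and 21.4%.

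**Figure D3:**
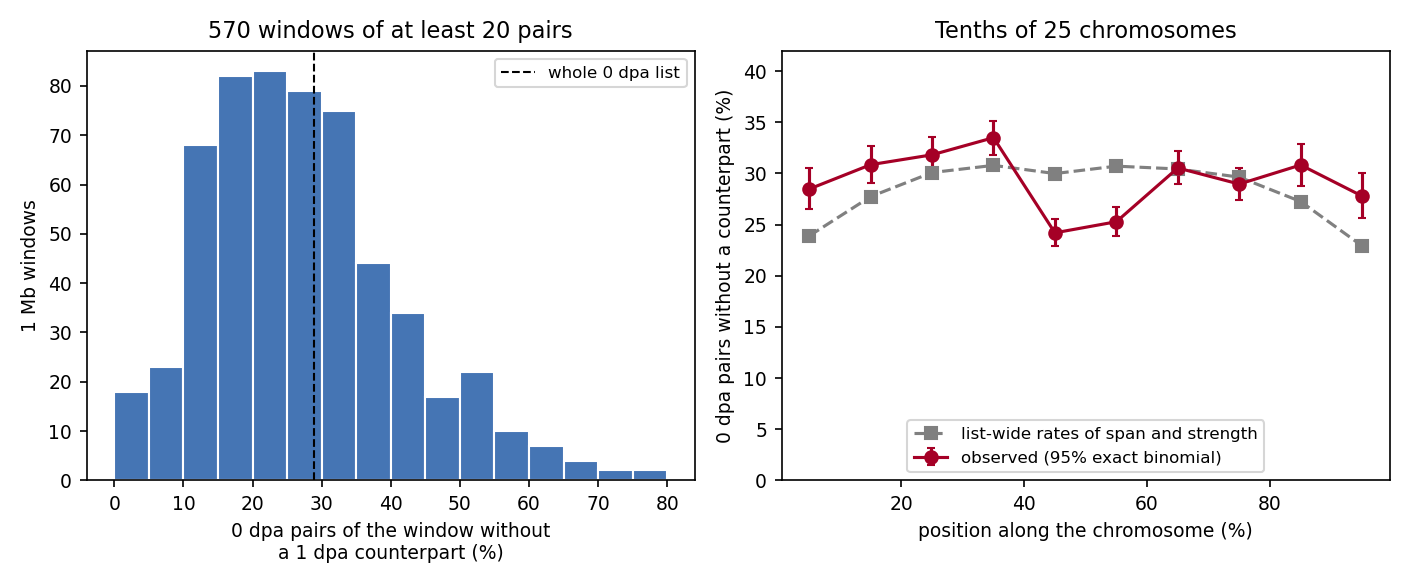
Left, number of 1 Mb windows with at least 20 pairs at 0 dpa by share of pairs without a 1 dpa counterpart (percent, bins of 5 points), with the share of the whole list as a dashed line. Right, the same share (percent, 95% exact binomial bars) in steps of 10% of chromosome length over 25 chromosomes, beside the share given by list-wide rates of span and strength; the steps from 40 to 60% lie at 24.2% and 25.3%, below the rates.

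Among anchors with many pairs, some held their number of contacts in the full lists while most had fewer. To let neither list alone choose them, anchors with at least 16 pairs in both lists together were taken, 255 in all. Over these, 2945 pair ends at 0 dpa stood against 2349 at 1 dpa, a ratio of 0.798. At least as many pairs at 1 dpa as at 0 dpa were found at 68 anchors, or 26.7%. Of these, 44 had more pairs and 24 the same number. The share was higher at less crowded anchors. It was 60.2% at 2 to 3 pairs in both lists together, 51.4% at 4 to 7 and 38.1% at 8 to 15. The ratio of pair ends at 1 dpa to those at 0 dpa went the other way. It was 0.646 at 2 to 3 pairs, 0.740 at 4 to 7, 0.773 at 8 to 15 and 0.802 at 24 or more. The higher share therefore does not mean that less crowded anchors held more of their contacts. Anchors with 1 pair occur in 1 list only and are left out of this comparison. Holding the number of pairs was thus not particular to crowded anchors. These 68 anchors are called resisting below, and since the rule used the number of pairs, their low loss is a description. They lost 3.60% of their 0 dpa pairs, and 52 of 68 lost none. The other 187 anchors lost 13.7%. Rates of span and strength would give 22.0% and 23.4%, values close to each other. Of all 255 anchors, 78 (30.6%) lay in the middle of a chromosome so defined, among them 29 of the 68 resisting ones (42.6%). Both the middle and the resisting anchors were picked from the same lists for low loss, so this overlap is partly built in. The median strength and span of the contacts were taken per anchor at 0 dpa. The median of these over resisting anchors was 4.91 and 137.5 kb, against 4.29 and 115 kb over the others. With lists of equal length, 102 of 152 anchors (67.1%) had at least as many pairs, so the majority then went the other way. That most anchors had fewer pairs thus depends on the length of the lists. With an FDR of at most 0.0001 in both lists, 18 of 82 anchors had at least as many.

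**Figure D4:**
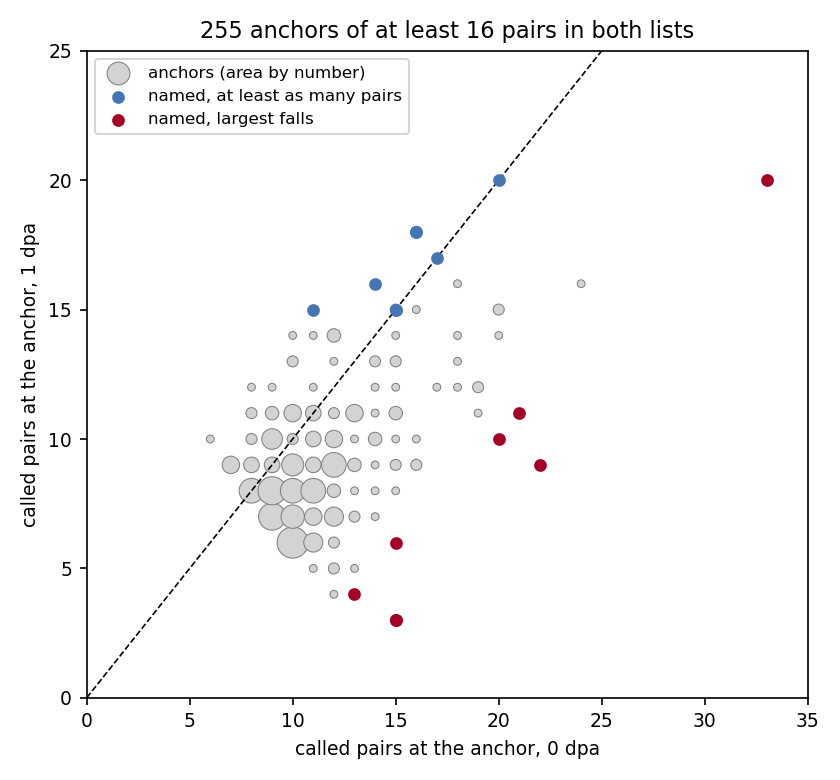
Called pairs per anchor at 1 dpa (vertical axis) against 0 dpa (horizontal axis) for the 255 anchors with at least 16 pairs in both lists; grey areas grow with the number of anchors at a point and the dashed line marks equal numbers. The 8 named resisting anchors lie on or above the line, up to 20 and 20 pairs, and the 8 named falls reach from 15 to 3 and from 33 to 20.

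The resisting anchor with the most pairs was at 28220001–28230000 of chromosome 6, with 20 pairs at each time. It exchanged part of them: 3 were lost and 5 of the later ones gained. At 34590001–34600000 of chromosome 18 there were 16 pairs at 0 dpa, all with a counterpart, and 18 at 1 dpa. Over the 14 pairs in identical bins, 447 counts became 358, with a median ratio of strength of 0.896. The strongest, 310 kb from the anchor, went from 78 to 49 counts, or from 19.7 to 13.8 times expected. At 32010001–32020000 of chromosome 2, all 16 pairs were called in the same bins at 1 dpa, beside 2 more, and their counts went from 428 to 385. The median ratio of strength there was 0.937, close to the 0.944 of all pairs called in identical bins at both times. Over the 8 named resisting anchors it ran from 0.896 to 1.14, with 1.03 at the anchor on chromosome 6. The anchors at 35460001–35470000 of chromosome 13, 35760001–35770000 of chromosome 11 and 11150001–11160000 of chromosome 22 had 17, 15 and 15 pairs at each time. At the one on chromosome 22, all 15 pairs had a counterpart but 8 were in identical bins; its strongest pair at 0 dpa, 220 kb away, went from 38 to 17 counts, and the pair at 140 kb from 20 to 29.

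The anchor at 8660001–8670000 of chromosome 11 went from 14 to 16 pairs, all to its left. Its contact at 310 kb was the strongest of any named resisting anchor, with 81 counts at 0 dpa and 60 at 1 dpa, 29.1 and 24.7 times expected. Those at 120 kb and 100 kb had 28 and 51 counts at 0 dpa and 32 and 45 at 1 dpa, so near contacts were held there too. The anchor at 22470001–22480000 of chromosome 20 kept all 11 pairs in identical bins and had 15 at 1 dpa. These 11 pairs lay 350 to 670 kb away and their counts summed to 232 at 0 dpa and 225 at 1 dpa. Its 3 gained pairs lay nearer, at 60, 270 and 280 kb. With an FDR of at most 0.0001 in both lists, 6 of these 8 anchors had fewer pairs at 1 dpa, by 1 or 2 pairs. With summits alone and with spans of at most 200 kb, 2 of 8 had fewer.

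At 6 of the 8 anchors with the largest falls, the lost pairs were nearer to the anchor and weaker, by the median, than the kept ones. At 17460001–17470000 of chromosome 13, the number went from 22 to 9. All 7 pairs within 120 kb were lost, and 13 of the 15 pairs at 190 kb or more had a counterpart. Its pair at 330 kb had 36 counts at both times. At 8450001–8460000 of chromosome 9, the bin with 33 pairs at 0 dpa and 20 at 1 dpa, lost pairs had a median strength of 4.55 and a median distance of 150 kb, and kept pairs 5.94 and 255 kb. Over the 17 pairs in identical bins, 467 counts became 373. At 8790001–8800000 of chromosome 12 the number went from 15 to 3, and lost and kept pairs there were of the same median strength, 3.74 and 3.70. Falls from 20 to 10, 15 to 6 and 13 to 4 were seen at 18120001–18130000 of chromosome 17, 8720001–8730000 of chromosome 24 and 56200001–56210000 of chromosome 7. Of 141 anchors that both lost and kept pairs, the lost ones were nearer by the median in 88 and farther in 52, and weaker in 111 and stronger in 30. The falls of the 8 named anchors were of 1 to 6 pairs with lists of equal length and of 3 to 10 with an FDR of at most 0.0001. With summits alone they ran from a fall of 2 to a rise of 1.

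**Figure D5:**
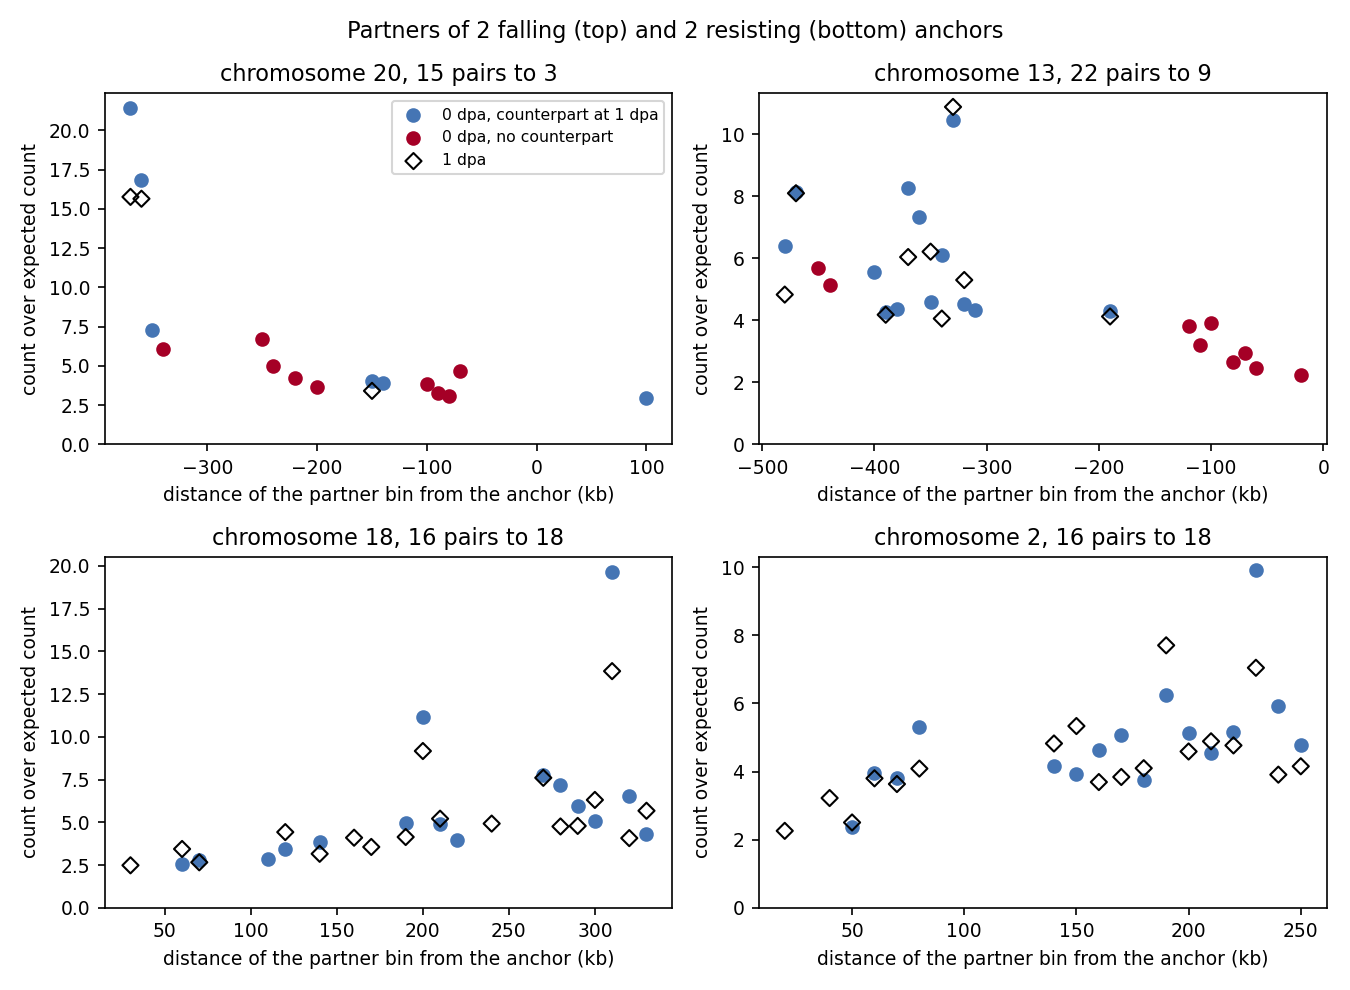
Count over expected count (vertical axis) of every called partner bin by its distance from the anchor (horizontal axis, kb, negative to the left) for anchors on chromosomes 20 and 13 (top, falls from 15 to 3 and 22 to 9 pairs) and 18 and 2 (bottom, from 16 to 18 pairs). Filled points are 0 dpa pairs with or without a 1 dpa counterpart and open diamonds are 1 dpa pairs; most near partners are lost at the top while the far ones at 470 kb (chromosome 13) and 360 kb (chromosome 20) stay.

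Of the falling anchors, 2 faced each other on chromosome 20. The anchor at 15190001–15200000 had all its partners to the right and went from 21 to 11 pairs. The one at 15550001–15560000 had 14 of its 15 partners to the left and went from 15 to 3. Their mutual contact, at the corner of the enclosed region, was called at both times. It had 46 counts at 0 dpa and 42 at 1 dpa, 16.8 and 15.6 times expected, a ratio of 0.929 (0.597 to 1.44). A stronger pair of the same cluster, from 15180001–15190000 to 15550001–15560000, went from 53 to 37 counts, 21.4 to 15.8 times expected. From the anchor at 15190001, the pair at 350 kb went from 26 to 22 counts and that at 370 kb from 15 to 17. Contacts inside the region were mostly lost. Of 49 pairs with both ends from the left anchor to 1 bin past the right anchor, 33 were lost (67.3%), and the 1 dpa list held 12 pairs, 1 of them gained. Of the 11 left-hand pairs of the anchor at 15550001 within 340 kb, 9 were lost, 4 of them in the cluster of 7 pairs described above. This region was singled out after its values were seen.

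Crowded anchors were mostly one-sided at both times. Of the 255 anchors, 155 (60.8%) had all their partners on 1 side at 0 dpa, 81 to the left and 74 to the right. At 1 dpa, 168 (65.9%) were one-sided. The side was the same at both times for 150 anchors and opposite for none. Among resisting anchors 50 of 68 (73.5%) were one-sided at 0 dpa, against 105 of 187 (56.1%) of the others. At 1 dpa the shares were closer, 48 of 68 (70.6%) and 120 of 187 (64.2%). Resisting anchors had a median of 9 pairs at 0 dpa and 10 at 1 dpa, the others 11 and 8. An anchor with fewer pairs is more easily one-sided, and the resisting rule uses these numbers. The contrast may thus be partly built in.

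Contacts called in identical bins could be compared in strength. These 13312 pairs had to pass the limits at both times, so strong changes may be missing. Their count at 1 dpa was 0.909 times that at 0 dpa by the median, their expected count 0.966 times and their strength 0.944 times. Lower strength was not confined to some chromosomes: the median ratio was below 1 on all 25, from 0.926 to 0.962. At least 1.5-fold lower strength was found for 914 pairs, or 6.87%, and at least 1.5-fold higher for 231, or 1.74%. The interval of the ratio lay below 1 for 420 pairs (3.16%) and above 1 for 44 (0.331%). When counts were instead scaled by their total over these pairs, the median ratio was 1.02, with 515 lower and 558 higher pairs. That scaling makes the 2 totals equal and so sets the ratio near 1. It cannot show a general fall or rise. The general direction thus rests on the authors' expected counts and was not tested against depth.

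By strength averaged over both times, the ratio was 0.970 for pairs over 2.5 and up to 3 times expected and 0.913 for those over 6 and up to 10 times. At 2 to 2.5 times it was 0.995, and 0 of 388 pairs changed 1.5-fold either way. Pairs of broad clusters had 0.921, with 8.89% at least 1.5-fold lower, and singletons 0.972, with 4.44%. Broad clusters, which lost the fewest pairs, thus had the lower ratio. A weak pair that falls further is no longer called, while a strong one stays in both lists. These contrasts are therefore at least partly set by the calling limits and give no relation between loss and change in strength. Windows of high and of low loss did not stand apart in strength: the median ratio was 0.936 over 602 pairs in high windows and 0.938 over 4320 in low ones. Over 469 windows with at least 10 identical pairs, it ran from 0.728 to 1.15 and had a Spearman rho of -0.0206 with the share lost. The middle of the chromosomes had 0.947 and the rest 0.943.

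Among single contacts with at least 20 counts at both times, the largest fall was on chromosome 14, between 26270001–26280000 and 26370001–26380000. It went from 56 to 22 counts, a ratio of 0.397 (0.231 to 0.661) in strength. On chromosome 7, the contact between 21640001–21650000 and 21770001–21780000 went from 58 to 24 counts, a ratio of 0.412 (0.245 to 0.674). On chromosome 5, the contact between 40960001–40970000 and 41030001–41040000 went from 77 to 32 counts, a ratio of 0.414 (0.265 to 0.632). These contacts were among the stronger ones at 0 dpa, at 8.76, 8.52 and 10.5 times expected, and all 3 were still called at 1 dpa. The next falls were on chromosomes 13, 6 and 5, with ratios of 0.421, 0.446 and 0.452. The largest rise, from 22 to 61 counts and a ratio of 2.49 (1.51 to 4.26), was on chromosome 12, between 34270001–34280000 and 34370001–34380000. On chromosome 8, 22 counts between 25240001–25250000 and 25330001–25340000 became 43, a ratio of 2.06 (1.21 to 3.62). On chromosome 1, the contact between 14230001–14240000 and 14270001–14280000 went from 26 to 47, a ratio of 1.88 (1.14 to 3.16). That on chromosome 14 at 40750001 went from 28 to 41. The 2 other named rises spanned 46150 and 7360 kb, on chromosomes 15 and 9, at expected counts near 1. These pairs are extremes picked from many, which their intervals do not take into account.

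Among lost contacts of up to 1 Mb with at least 20 counts, the strongest were mostly lone pairs, all with low expected counts. A ranking by count over expected count favours low expected counts. Of the 190 lost pairs at over 10 times expected, 120 spanned over 1 Mb and were not ranked. The top pair, on chromosome 13 from 47270001–47280000 to 47540001–47550000, was at 24 counts, 17.3 times expected (11.1 to 25.8). The next, on chromosome 15 from 42050001–42060000 to 42140001–42150000, was at 28 counts, 16.5 times expected (10.9 to 23.8). The 6 named lost pairs had expected counts of 1.34 to 1.72, and 5 of them were singletons. The exception, on chromosome 16 between 54310001–54320000 and 54820001–54830000, was 1 of a cluster of 4 pairs at 13.7 times expected (8.35 to 21.1). Among gained pairs, a contact of 30 kb on chromosome 12, from 46210001–46220000 to 46240001–46250000, was at 25 counts, 16.6 times expected (10.7 to 24.5). On chromosome 19, the gained pair between 2480001–2490000 and 2700001–2710000 had 20 counts, 13.1 times expected (8.02 to 20.3). Of the 6 gained pairs named by strength, 4 were singletons.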

How the data were processed

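Per the file headers, the authors deposited for each pair of 10 kb bins a contact count, an expected count (a modelled signal), an FDR (a q-value), its cluster, a summit mark and a −log10 p of the cluster. Per the submitters' processing notes, BWA was run and danRer11 is the build; for the caller, the model behind the expected counts and the pooling, nothing is given in the sources used here. The time of a list was taken from its name. The 4 dpa list served for its length alone. Without a danRer11 annotation to hand, planned gene lists at anchors were not run, bins go without gene names and no sequence is shown. The tissue label could not be checked against marker genes.

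Lists were compared in Python 3.11.15 with pandas 2.3.3, NumPy 2.4.6 and SciPy 1.17.1, and drawn with matplotlib 3.10.9. The matching code was tested on simulated lists. Rates of span and strength are the list-wide shares lost in classes of both. Equal length means that the 0 dpa list was reduced by lowest FDR, ties by strength. Summit settings count summits against all pairs of the other list (for anchors, summits of both lists, and for identical pairs, summits at either time); scaled raw counts are divided by their total over identical pairs; centred ratios are divided by the median ratio. Other settings changed the matching, FDR, count and window limits. Members, tests and naming rules were chosen with earlier results of these data known. Named were the 6 windows with the highest and lowest share lost and highest share gained (at least 20 pairs), the 8 resisting anchors with most pairs and the 8 largest falls (at most 1 per 50 kb), the 6 strongest lost and gained pairs (at least 20 counts, up to 1 Mb), the 6 largest rises and falls in strength (at least 20 counts at both times) and the 6 largest clusters lost whole; pairs 1 per cluster.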

Additional observations from a re-analysis of the deposited data

How the results depend on the processing

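No paired analysis was possible because each time point has a single list, and for the same reason no replicate could be left out. Sequencing depth is unknown and limits every count of calls. Of 70 alternatives, 29 were labelled the same, 39 moved and 2 reversed. For results given as counts, the label compared counts alone, though many settings also changed the number tested. Resisting anchors with equal lengths were labelled the same, though their share went from 26.7% to 67.1%. At a minimum of 24 pairs they were labelled moved, though their share was 25%. The tally is thus no measure of how far the results hold. The causes of the differences between settings were not tested.

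Requiring identical bins gave 15109 lost and 5400 gained pairs. It gave 7 windows of high loss and 39 of low loss among 570, and 25 of high gain among 318. An FDR of at most 0.0001 on the side counted gave 4643 of 18475 lost (25.1%) and 1344 of 12077 gained (11.1%). Equal lengths gave 4710 lost and 2975 gained, with 17 of 313 windows of high loss and 142 of low loss. Summits gave 4605 of 10526 lost, a higher share (43.7%) than the main 29.0%. The share lost beside a lost pair of the same anchor was 32.4% for other clusters, 51.5% with identical bins, 32.7% with equal lengths, 45.3% for summits and 36.9% for spans over 50 kb, against 25.7%, 40.9%, 11%, 39.1% and 10.9% beside a kept pair. For other clusters it was 52.6% with identical bins and 27.3% with equal lengths, both added after the lists were seen. Placing each anchor in its own window gave 210 of 972 windows of high loss (21.6%) and 166 of 714 of high gain (23.2%). A minimum of 10 pairs gave 212 of 969 (21.9%) and 181 of 730 (24.8%). Windows of 2 Mb gave 108 of 547 of low loss (19.7%) and 81 of 396 of high gain (20.5%). Resisting anchors numbered 102 of 152 with equal lengths (67.1%), against 68 of 255 (26.7%) in the main setting. They were 196 of 633 at a minimum of 12 pairs (31.0%), 14 of 56 at 24 (25%) and 18 of 82 at an FDR of at most 0.0001 (22.0%). For spans of at most 200 kb they were 43 of 168 (25.6%) and for anchors of 3 bins 206 of 1003 (20.5%). For summits there were 0, where 1 anchor was left. The median ratio of strength was labelled reversed at 1.02 with scaled raw counts, a scaling that sets it near 1, and was 0.949 for summits. Of 13312 pairs, 515 were at least 1.5-fold lower with scaled counts and 561 when centred. They were 517 of 9962 at a count of at least 20 and 503 of 6690 for summits. Higher ones numbered 558, 425, 82 and 145 in the same order. The ratio of loss in the middle of the chromosomes to that elsewhere, added after the lists were seen, moved to 0.953 with identical bins and reversed to 1.03 for singletons.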

Other observations

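Contacts over very long distances made up a small share of the lists. Those over 1 Mb and up to 5 Mb went from 282 to 240, with 56 lost, 19.9% (15.4 to 25). Over 5 Mb on chromosomes other than 4, 316 at 0 dpa stood against 293 at 1 dpa, with 68 lost (21.5%). On chromosome 4, 50 such pairs were called at each time, 4 lost and 2 gained. Among pairs at over 10 times expected, those over 1 Mb lost 19.2% (16.2 to 22.5), against 3.14% (1.58 to 5.55) at 110 to 200 kb. These 2 classes were not matched for count, and the contrast was not worked out with identical bins.

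Gained contacts formed few large patches. The largest clusters with no counterpart at 0 dpa held 5 pairs each, both on chromosome 4. One joined 26550001–26580000 to 26570001–26610000, with 152 counts against 52.8 expected. The other joined 390001–410000 to 680001–710000, with 67 counts against 14.5 expected, 4.64 times.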
